A study of Mus musculus with 12 samples.

Results

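The genes described here are 9 members of the heme synthesis pathway: Alas1 and Alas2, which each encode a form of the first enzyme, the later enzymes Alad, Uros, Urod, Cpox and Fech, and the mitochondrial carriers Slc25a37 and Slc25a38. They were taken by gene symbol from a table of 41079 genes, and all 9 were found. They were followed in 12 whole mouse embryos collected 10.0 to 11.0 days after fertilization: 4 Mfsd12 knockout, 4 heterozygous and 4 wild-type embryos, all from timed matings between heterozygous breeders. The product of Mfsd12 sits in the membranes of lysosomes and melanosomes and is needed to bring cysteine into them. The labels give no strain, allele construction or sex, and the RNA came from the entire embryo, so fewer cells of a type and less RNA per cell cannot be told apart in any value below.

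Heme is built partly in mitochondria and partly in the cytosol. ALA synthase joins glycine to succinyl-CoA in the mitochondrion, cytosolic enzymes assemble and trim the porphyrin ring, and the last steps return to the mitochondrion, where ferrochelatase inserts iron. Most tissues use Alas1, whose product is held down by heme, whereas developing red cells use Alas2, the X-linked form, and make far more heme to fill hemoglobin. At this stage the circulating red cells of the mouse embryo are mainly primitive erythroblasts that arose in the yolk sac.

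The windows before the transcription starts are shown for the pair of first-step genes and for Cpox, because Alas2 and Cpox carry the letters read by GATA factors, which drive red cell genes, and Alas1 does not. Each is the 250 bases upstream of the start, from RefSeq on GRCm38.p6, printed 5′ to 3′ on the gene's own strand, with capitals marking AGATAA or TGATAA on either strand.
Alas2 (chrX:150547167-150547416, plus strand): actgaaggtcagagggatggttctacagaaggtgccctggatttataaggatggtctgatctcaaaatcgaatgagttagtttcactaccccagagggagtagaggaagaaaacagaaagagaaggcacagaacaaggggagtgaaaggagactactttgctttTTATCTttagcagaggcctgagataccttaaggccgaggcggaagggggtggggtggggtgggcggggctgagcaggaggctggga
Cpox (chr16:58669958-58670207, plus strand): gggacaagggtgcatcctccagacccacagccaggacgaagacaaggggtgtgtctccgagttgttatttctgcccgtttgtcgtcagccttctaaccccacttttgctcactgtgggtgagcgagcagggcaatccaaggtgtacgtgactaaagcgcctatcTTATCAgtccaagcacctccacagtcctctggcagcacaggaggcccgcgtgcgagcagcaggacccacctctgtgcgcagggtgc
Alas1 (chr9:106247955-106248204, minus strand, first of its start sites): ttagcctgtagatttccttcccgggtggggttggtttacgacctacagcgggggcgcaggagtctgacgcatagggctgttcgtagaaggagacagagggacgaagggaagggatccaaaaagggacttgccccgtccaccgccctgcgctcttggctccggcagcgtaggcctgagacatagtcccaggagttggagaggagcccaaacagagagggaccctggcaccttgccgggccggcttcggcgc
The capitals in Alas2 read TTATCT and those in Cpox TTATCA, both beginning 86 bases before the start. Of the 9 genes, 7 had entries, with 10 windows in all, and Fech and Slc25a37 are named only. The letters AGATAA or TGATAA stood in 3 of those 7 genes, the third being Uros at its second start site, and in 18.8% of 27025 mouse genes with such windows. The pattern CCNCNCCC, whose letters occur at sites of KLF1 and related factors, was found 4 times in the Alas2 window on its minus strand, with some matches overlapping, once in the Alas1 window shown and nowhere in that of Cpox, and it stood in 48.5% of all such genes. These are matches of letters, not measured binding.

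Libraries held 53133084 to 67977990 counted reads. Mfsd12 itself was 2.97 ± 0.544 CPM in knockout, 5.84 ± 2.56 CPM in heterozygous and 11.9 ± 3.23 CPM in wild-type embryos (mean ± SD, n = 4 each; CPM, counts relative to the scaled library total). The library labelled heterozygous 2 had 2.58 CPM, within the knockout range of 2.31 to 3.57 CPM, so its Mfsd12 RNA level goes against its label. Knockout embryos keep some Mfsd12 RNA, so this level alone does not settle its genotype. Globin RNA took 0.520% to 1.94% of counted reads in knockout, 1.27% to 5.04% in heterozygous and 1.84% to 8.64% in wild-type embryos, and wild-type 1 holds the highest value. RNA of the Y-linked Ddx3y exceeded 1 CPM in 3 knockout embryos, 0 heterozygous embryos and 3 wild-type embryos, so the sexes are unevenly spread over the genotypes. The first number in the sample titles (4, 4.1b, 14, 15 or 18) has no stated meaning. Only 4 and 18 occur with all 3 genotypes. Knockout 1 carries number 14 and knockout 4 number 15, and no wild-type embryo carries either, so number and genotype cannot be told apart there.

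In knockout embryos all 9 genes had lower estimates than in wild-type embryos, with Alas2, Fech and Slc25a37 furthest down at 2.93-fold, 2.13-fold and 2.10-fold. None passed the adjusted threshold of 0.05 in edgeR's quasi-likelihood test over 20771 genes, where 0 genes passed in all (0%). At an unadjusted p under 0.05, 6 of the 9 were lower (4.08% of all genes were), namely Alas2, Alad, Urod, Fech, Slc25a37 and Slc25a38, and 0 of the 9 were higher (4.25% of all genes). Negative estimates were found for 48.7% of all genes. The median log2 fold change was -0.60 over the 9 genes and 0.011 over all genes. In 2 of the 9, Alas2 and Slc25a37, every knockout embryo lay below every wild-type embryo, a separation seen in 1.82% of all genes. DESeq2 called 129 genes at its adjusted threshold, 95 higher and 34 lower, and none of the 9 was among them; its smallest adjusted p for these genes was 0.0871, for Alas2.

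**Figure D1:**
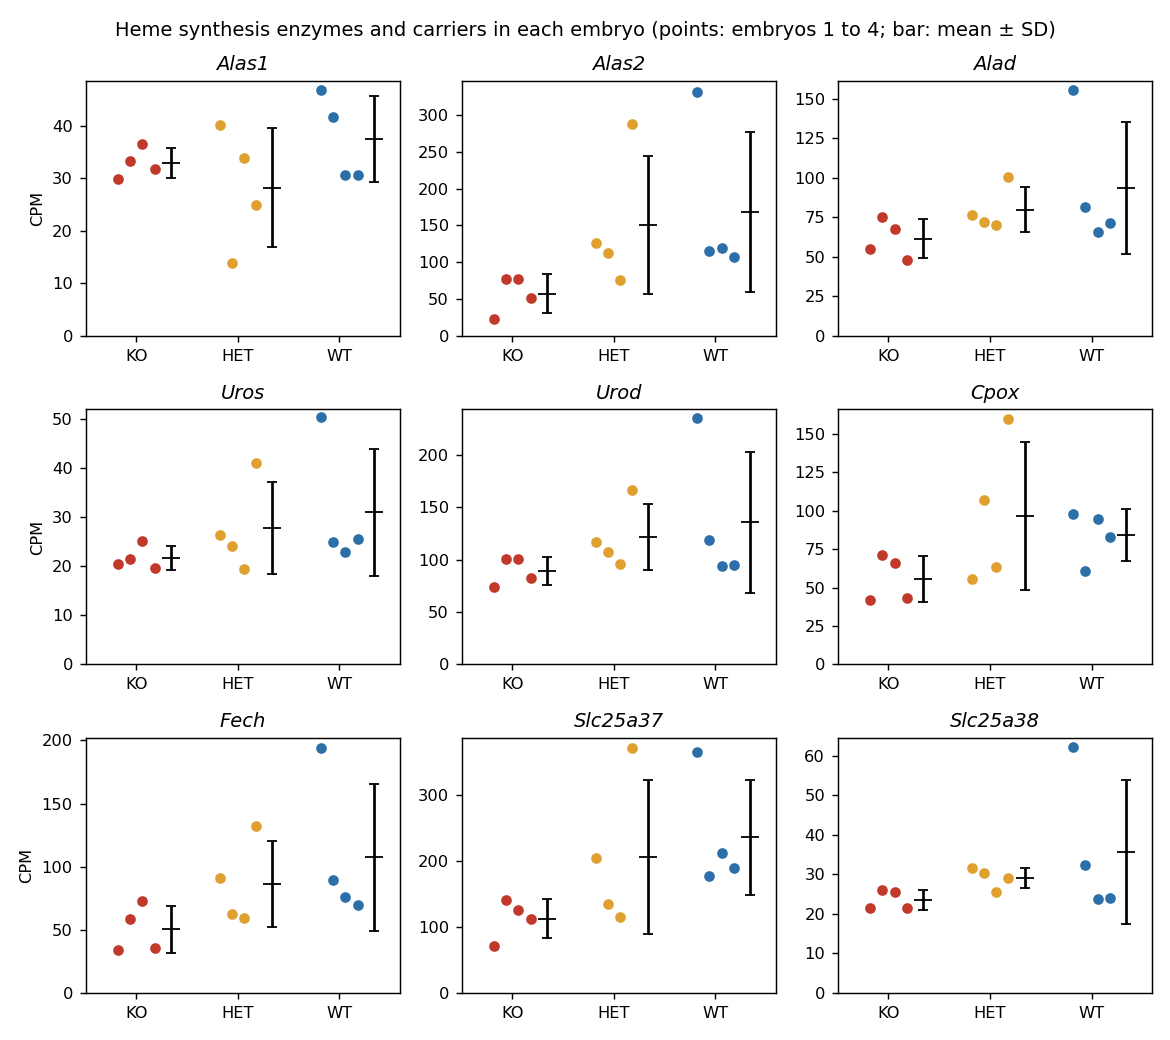
Level of each of the 9 genes in every embryo, in CPM on a linear axis from 0, with knockout embryos on the left, heterozygous in the middle and wild-type on the right; points are embryos and bars mark mean ± SD. Wild-type 1 is the highest wild-type embryo in all 9 panels, and the knockout and wild-type points are apart for Alas2 and Slc25a37.

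At the first step, Alas2 encodes the ALA synthase of erythroid cells and maps to chromosome X (149330443 to 149353614, plus strand, in GRCm39 as for every gene position below). Its level was 23.1, 77.4, 77.9 and 51.5 CPM in knockout embryos 1 to 4, 126, 112, 75.8 and 288 CPM in heterozygous embryos and 331, 115, 120 and 107 CPM in wild-type embryos. The highest knockout embryo stood below the lowest wild-type embryo, while heterozygous 3 fell inside the knockout range. The log2 fold change of knockout against wild-type was -1.55 ± 0.49 (SE; edgeR adjusted p = 0.538). Without wild-type 1 it was -0.99, and among embryos sharing a title number it was -0.55 for number 4 and -1.32 for number 18, from 1 knockout against 2 wild-type embryos each time. With Xist as a covariate it was -1.41. The covariate was used because Alas2 is X-linked and the sexes are uneven over the 3 genotypes. Knockout and wild-type embryos were alike in this, with Ddx3y above 1 CPM in 3 embryos of each. Alas2 shares 319 exon bases with Apex2 on the other strand, and strand was not used in counting; Apex2 had a log2 fold change of -0.47 ± 0.28 (edgeR adjusted p = 0.655).

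Alas1, the ALA synthase of other tissues, maps to chromosome 9 (106110654 to 106125153, minus strand). It had 29.9, 33.3, 36.5 and 31.8 CPM in knockout embryos, 40.1, 13.9, 33.9 and 25.0 CPM in heterozygous embryos and 46.9, 41.7, 30.6 and 30.7 CPM in wild-type embryos. The groups overlapped throughout, and the lowest level of all was in the library labelled heterozygous 2. Its log2 fold change of knockout against wild-type was -0.19 ± 0.26 (edgeR adjusted p = 0.837), and 28.7% of all genes had a more negative estimate, against 1.24% for Alas2. Without wild-type 1 the Alas1 estimate was -0.063, and a block for the title number turned it to 0.10.

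The ratio of Alas2 to Alas1 within a library does not depend on how libraries are scaled. Per kilobase of exon it was 1.27, 3.80, 3.48 and 2.64 in knockout embryos, 5.14, 13.2, 3.66 and 18.9 in heterozygous embryos and 11.5, 4.50, 6.42 and 5.71 in wild-type embryos. All knockout ratios were below all wild-type ratios. The mean log2 ratio was 1.37 ± 0.72 in knockout against 2.72 ± 0.58 in wild-type embryos (SD, n = 4 each), a difference of -1.36 or 2.56-fold, with an exact two-sided permutation p of 0.0286, the smallest that 4 against 4 can give. The pair was picked with earlier results of these embryos known, so this p is not independent evidence of a direction. Against heterozygous embryos, whose mean log2 ratio was 3.05 ± 1.11, the difference was -1.68 (exact permutation p = 0.0571), and 1 of the 4 heterozygous ratios fell inside the knockout range. Heterozygous 2, with a ratio of 13.2, had the lowest Alas1 level of the 12 embryos.

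Among the cytosolic enzymes, Alad, which condenses ALA into porphobilinogen, maps to chromosome 4 (62422762 to 62438300, minus strand) and averaged 61.5 ± 12.1 CPM in knockout, 79.9 ± 14.2 CPM in heterozygous and 93.5 ± 41.9 CPM in wild-type embryos. Its log2 fold change of knockout against wild-type was -0.61 ± 0.26 (edgeR adjusted p = 0.589). Single embryos held 54.8, 75.0, 67.8 and 48.3 CPM in knockout and 156, 81.4, 65.7 and 71.4 CPM in wild-type embryos, so the groups overlapped and wild-type 1 stood well above the rest. Without that embryo the Alad estimate was -0.25.

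Uros, which closes the ring as uroporphyrinogen III, maps to chromosome 7 (133287871 to 133312176, minus strand). It had 20.5, 21.6, 25.2 and 19.6 CPM in knockout embryos, 26.5, 24.2, 19.4 and 41.1 CPM in heterozygous embryos and 50.3, 25.0, 22.9 and 25.7 CPM in wild-type embryos. Apart from wild-type 1 and heterozygous 4, every embryo was between 19.4 and 26.5 CPM. The estimate for knockout against wild-type was -0.51 ± 0.27 on the log2 scale (edgeR adjusted p = 0.625), and -0.18 without wild-type 1.

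Urod, which trims the acetate side chains of that ring, maps to chromosome 4 (116847161 to 116851561, minus strand). Its level was 74.2, 100.1, 100.9 and 82.3 CPM in knockout embryos, 117, 107, 95.5 and 167 CPM in heterozygous embryos and 235, 119, 93.8 and 95.2 CPM in wild-type embryos. Knockout 2 and 3 exceeded wild-type 3 and 4. The log2 fold change of knockout against wild-type was -0.60 ± 0.28 (edgeR adjusted p = 0.599), and -0.20 without wild-type 1. Among the embryos of title number 4 the Urod difference was 0.083, while it was -0.73 for number 18.

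Of the last enzymes, in the mitochondrion, Cpox, which acts between the mitochondrial membranes, maps to chromosome 16 (58490571 to 58500754, plus strand). It had 41.7, 71.2, 65.7 and 43.5 CPM in knockout embryos and 55.8, 107, 63.6 and 160 CPM in heterozygous embryos. Wild-type embryos had 98.1, 61.0, 95.0 and 82.7 CPM. Wild-type 3 came close to wild-type 1, and wild-type 2 lay inside the knockout range. Its estimate for knockout against wild-type was -0.60 ± 0.31 (log2; edgeR adjusted p = 0.619), and it stayed at -0.52 without wild-type 1.

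Fech encodes ferrochelatase, which inserts ferrous iron into protoporphyrin, and maps to chromosome 18 (64589613 to 64622169, minus strand). Its level was 34.1, 58.8, 72.7 and 35.4 CPM in knockout embryos, 91.3, 62.5, 59.2 and 133 CPM in heterozygous embryos and 194, 89.7, 75.9 and 69.8 CPM in wild-type embryos. Only knockout 3 and wild-type 4 crossed. The log2 fold change of knockout against wild-type was -1.09 ± 0.37 (edgeR adjusted p = 0.538). It was -0.64 without wild-type 1 and -1.31 without knockout 3, and within title numbers it was -0.31 for number 4 and -0.86 for number 18.

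Of the carriers, Slc25a37 encodes mitoferrin 1, which brings iron into the mitochondria of erythroblasts, and maps to chromosome 14 (69479297 to 69522993, minus strand). It had 71.5, 141, 125 and 112 CPM in knockout embryos, 205, 134, 115 and 372 CPM in heterozygous embryos and 365, 178, 212 and 189 CPM in wild-type embryos. Every knockout embryo was below every wild-type embryo, and heterozygous 2 and 3 lay within the knockout range. The log2 fold change of knockout against wild-type was -1.07 ± 0.36 (edgeR adjusted p = 0.538), -0.78 without wild-type 1, and -0.51 and -1.02 within title numbers 4 and 18. Its relative Slc25a28, mitoferrin 2 of other tissues, was chosen after its values were seen: it stayed between 12.5 and 16.6 CPM in all 12 embryos, with a log2 fold change of 0.06 ± 0.14 (edgeR adjusted p = 0.904).

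Slc25a38 carries glycine, a substrate of the first step, into the mitochondria of erythroid cells. It maps to chromosome 9 (119939428 to 119953570, plus strand) and had 21.4, 26.1, 25.5 and 21.4 CPM in knockout embryos, 31.6, 30.2, 25.6 and 29.1 CPM in heterozygous embryos and 62.2, 32.3, 23.7 and 24.1 CPM in wild-type embryos. Wild-type 3 and 4 sat within the knockout range. The log2 fold change of knockout against wild-type was -0.59 ± 0.26 (edgeR adjusted p = 0.598), and without wild-type 1 it was -0.18. Leaving out that 1 embryo thus reduced the median of the 9 log2 estimates to -0.25 and the count at an unadjusted p under 0.05 from 6 to 2 (2.04% of the 21265 genes in that fit were lower at this p), while all 9 stayed negative. Within title number 4, from 1 knockout against 2 wild-type embryos, 4 of the 9 log2 differences were positive, namely Alad at 0.13, Slc25a38 at 0.12, Alas1 at 0.12 and Urod at 0.083, with Uros at -0.17 and Cpox at -0.32. Within number 18 all 9 were negative, with Alad at -0.73, Slc25a38 at -0.81, Alas1 at -0.27, Uros at -0.49 and Cpox at -0.24.

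Heterozygous embryos offered a second reference for the knockout, although the knockout embryos are shared by both comparisons. Sex was uneven in this comparison, with Ddx3y above 1 CPM in 3 knockout embryos and 0 heterozygous embryos. Of the 9 genes, 8 had lower estimates in knockout than in heterozygous embryos (50.1% of all genes were negative), with a median log2 fold change of -0.44. Alas1 was the exception at 0.22 ± 0.26. Without heterozygous 2, the library with an Mfsd12 level in the knockout range and the lowest Alas1 level, the Alas1 estimate was -0.0050. At an unadjusted p under 0.05, 3 were lower (3.79% of all genes): Alas2 at -1.39 ± 0.49 (edgeR adjusted p = 0.617), Slc25a37 at -0.88 ± 0.35 (adjusted p = 0.643) and Cpox at -0.80 ± 0.31 (adjusted p = 0.643). Fech was at -0.78 ± 0.37 (adjusted p = 0.680). None of the 9 separated the groups (1.93% of all genes did so in the lower direction), and none passed the adjusted threshold, as for all genes (0%). Heterozygous 4 weighed on these values: without it Alas2 was at -0.86, Slc25a37 at -0.42, Cpox at -0.43 and Fech at -0.49.

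Heterozygous and wild-type embryos also differed in sex, with Ddx3y above 1 CPM in 0 heterozygous and 3 wild-type embryos. Between these genotypes the 9 estimates lay between -0.41 for Alas1 and 0.20 for Cpox, 8 of them negative (51.6% of all genes were). None reached an unadjusted p under 0.05 (1.01% of all genes did in either direction), and every adjusted p was 1 in edgeR. Leaving out wild-type 1 turned 7 of the estimates positive, among them Alas2 at 0.40 and Fech at 0.14, and without heterozygous 2 the Alas1 estimate was -0.18.

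**Figure D2:**
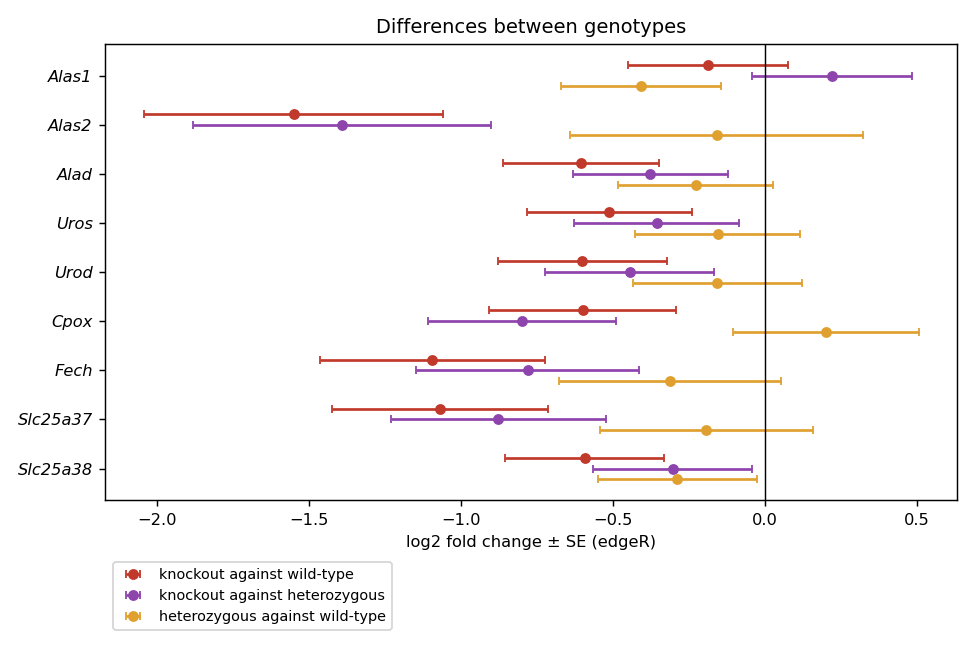
Log2 fold change ± SE of each of the 9 genes from edgeR for knockout against wild-type, knockout against heterozygous and heterozygous against wild-type embryos, with 0 marked. All 9 estimates of knockout against wild-type are negative, from -1.55 for Alas2 to -0.19 for Alas1, and those of heterozygous against wild-type lie between -0.41 and 0.20.

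The order of levels was compared per kilobase of annotated exon (RPKM). In knockout embryos it ran Urod 55.9 ± 8.31, Alas2 28.8 ± 13, Slc25a37 22.0 ± 5.81, Cpox 17.4 ± 4.75, Fech 16.3 ± 6.07, Alas1 10.1 ± 0.862, Alad 9.98 ± 1.97, Slc25a38 6.04 ± 0.655 and Uros 2.02 ± 0.229 RPKM (SD, n = 4). In wild-type embryos it ran Urod 84.8 ± 42.0, Alas2 84.3 ± 54.4, Slc25a37 46.1 ± 17, Fech 34.7 ± 18.9, Cpox 26.4 ± 5.29, Alad 15.2 ± 6.80, Alas1 11.5 ± 2.5, Slc25a38 9.12 ± 4.66 and Uros 2.89 ± 1.21 RPKM. Urod and Alas2 had the same level per length within their spread in wild-type embryos, but in knockout embryos the lowest Urod value, 46.4 RPKM, was above the highest Alas2 value, 39.0 RPKM. Of the other neighbours in the knockout order, Alad and Slc25a38 did not overlap, nor did Slc25a38 and Uros; in the wild-type order only Slc25a38 and Uros did not. Uros and Alad are annotated with exon lengths of 10726 and 6163 bases over all transcripts, which lowers their level per length.

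As a share of the summed level per length of the 9 genes, Alas2 made up 16.4% ± 4.64 in knockout, 25.3% ± 5.01 in heterozygous and 25.5% ± 3.63 in wild-type embryos (SD, n = 4). The highest knockout share, 19.3%, was below the lowest wild-type share, 22.9%. Urod took 33.7% ± 3.33 in knockout against 26.8% ± 2.25 in wild-type embryos. Alas1 took 6.18% ± 1.10 in knockout against 3.94% ± 0.995 in wild-type embryos. Shares sum to a fixed total, so a lower share of 1 gene raises the others.

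An erythroid score was taken as the mean centred log2 CPM of 22 erythroid markers that include none of the 9 genes. It averages RNA levels and is not a count of red cells. It was -1.53, -0.58, -0.13 and -1.35 in knockout embryos, 0.54, 0.08, -0.39 and 1.17 in heterozygous embryos and 1.73, 0.46, 0.16 and -0.16 in wild-type embryos. All 22 markers had lower estimates in knockout than in wild-type embryos (48.7% of all genes did), with a median log2 fold change of -1.37. All 22 were at an unadjusted p under 0.05 (4.08% of all genes were lower at this p). In 14 the groups did not overlap (1.82% of all genes in this direction). None passed the adjusted threshold in edgeR, where the smallest adjusted p in the list was 0.537. The list was chosen with earlier results of these embryos known, so these counts are not independent evidence of a direction. Among the markers were Slc4a1, the red cell anion exchanger, at -1.70 ± 0.45 and Ahsp, which stabilizes alpha globin, at -2.29 ± 0.64. The summed level of the 22 markers was 280 to 659 CPM in knockout, 618 to 1993 CPM in heterozygous and 771 to 2372 CPM in wild-type embryos. The 10 globin genes had a median log2 fold change of -2.05, with 7 lower at an unadjusted p under 0.05 (4.08% of all genes were). The embryonic globins Hbb-y and Hba-x, the most abundant, were at -1.83 ± 0.58 and -2.0 ± 0.55.

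**Figure D3:**
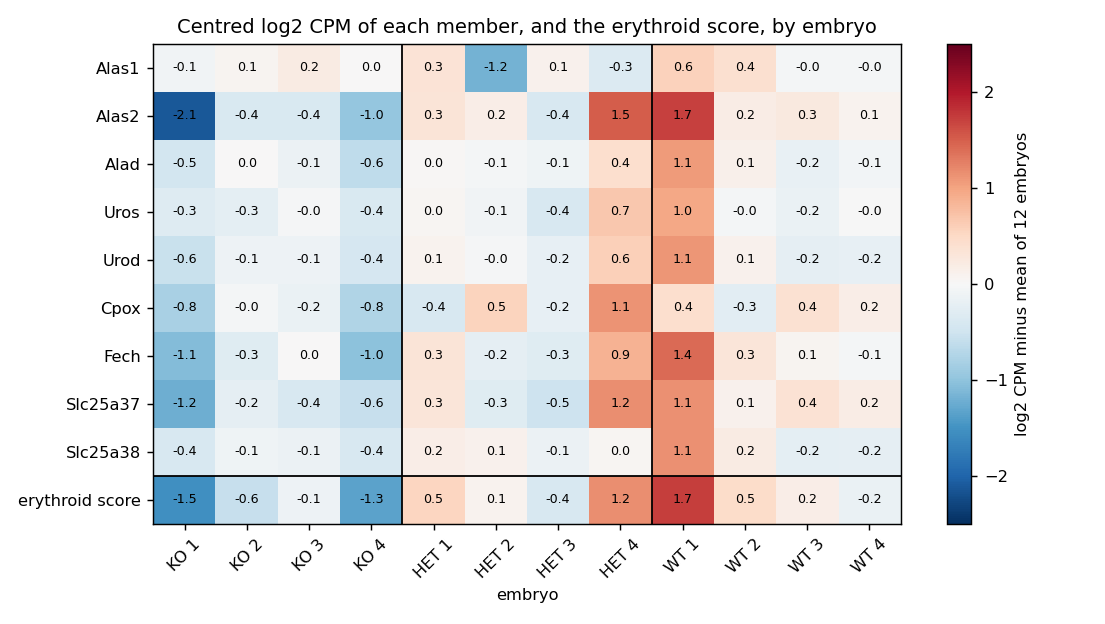
Log2 CPM of each of the 9 genes minus its mean over the 12 embryos (color and printed value), by embryo, with knockout embryos on the left, heterozygous in the middle and wild-type on the right and the erythroid score in the bottom row. Knockout 1 and 4 are low and wild-type 1 and heterozygous 4 high in most rows, whereas the Alas1 row has its lowest value in heterozygous 2. Knockout 1 and 4 carry title numbers that no wild-type embryo carries.

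Across the 12 embryos, 7 of the 9 genes followed the erythroid score closely. Pearson's r with the score was 0.987 for Fech (Spearman 0.979), 0.960 for Alas2 (0.979), 0.926 for Urod (0.860), 0.920 for Slc25a37 (0.867), 0.910 for Alad (0.790), 0.879 for Uros (0.832) and 0.828 for Slc25a38 (0.769). Only 0.0144% of all tested genes had an r as high as that of Fech and 0.135% one as high as that of Alas2. Cpox was looser at 0.725 (0.573), a value that 4.76% of all genes reached, and Alas1 stood at 0.189 (0.308), which 38.9% of all genes reached. These values are descriptions: the score and the genes come from the same libraries, and the difference in score between the genotypes is part of each r. Without wild-type 1 and knockout 1, the embryos farthest from the median score, r was 0.975 for Fech, 0.936 for Alas2, 0.663 for Cpox and -0.09 for Alas1. For the other genes it lay between 0.743 for Slc25a38 and 0.885 for Urod. Spearman values without them were 0.964 for Fech and Alas2, 0.782 for Slc25a37 and 0.758 for Urod and Uros. They were 0.649 for Alad, 0.612 for Slc25a38, 0.333 for Cpox and -0.0061 for Alas1.

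The genes also differed in how steeply they followed the score. Alas2 differed by 1.05 log2 units per unit of score, Fech by 0.745 and Slc25a37 by 0.684. The slopes of Urod, Cpox, Alad, Uros and Slc25a38 lay between 0.448 and 0.365, and that of Alas1 was 0.0899. Alas2 thus varied across the 12 embryos about as much as the mean of the erythroid markers did, and 14.3-fold between its lowest and highest embryo, against 5.68-fold for Fech, 3.17-fold for Urod and 2.6-fold for Uros.

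**Figure D4:**
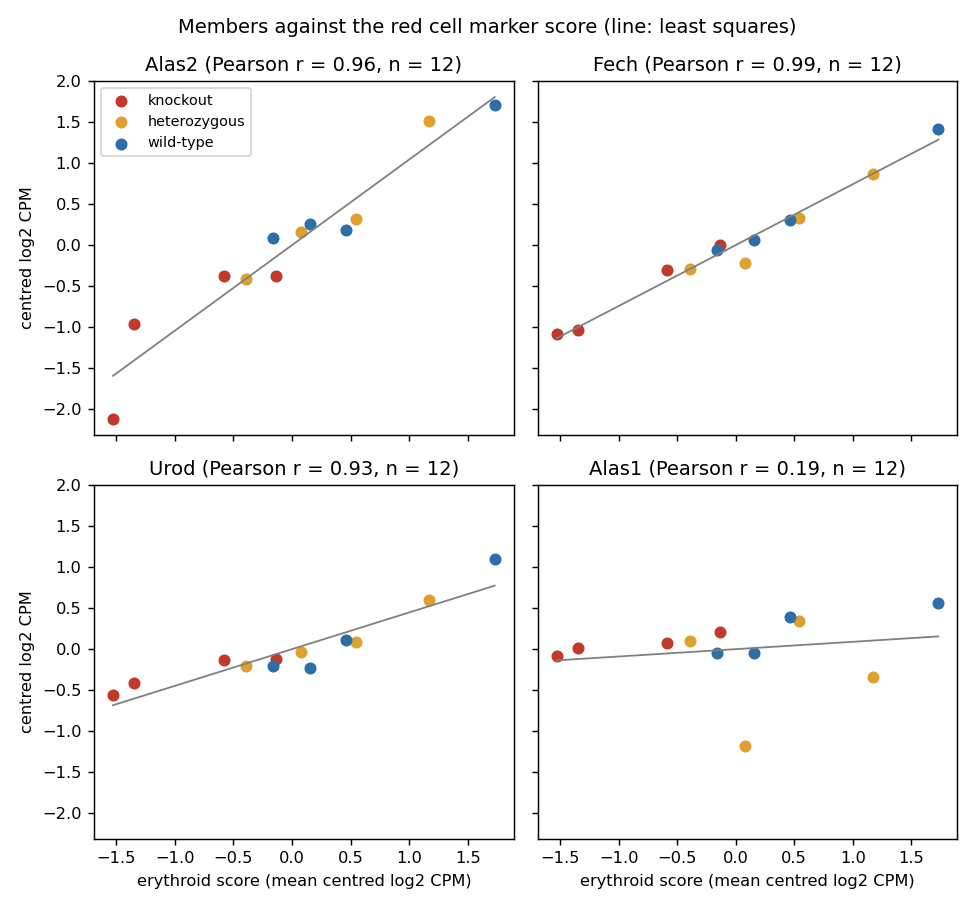
Log2 CPM of Alas2, Fech, Urod and Alas1 against the erythroid score in the 12 embryos, with symbols for knockout, heterozygous and wild-type embryos. Points rise with the score for Alas2 (r = 0.960), Fech (r = 0.987) and Urod (r = 0.926) and show no such trend for Alas1 (r = 0.189).

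With the erythroid score as a covariate, the knockout against wild-type estimates were -0.03 ± 0.28 for Alas2, 0.13 ± 0.15 for Fech, -0.05 ± 0.28 for Slc25a37 and -0.06 ± 0.34 for Cpox (log2 ± SE), and between 0.10 for Alas1 and 0.31 for Urod for the other 5 genes. The smallest unadjusted p among the 9 was 0.130, in edgeR, for Urod, and every adjusted p was above the threshold. A covariate that itself differs between the genotypes removes part of any genotype difference by construction. How much of the lower level goes with the erythroid score and how much with genotype therefore cannot be told apart. With the title number as a block the estimates were -1.21 for Alas2, -0.80 for Slc25a37 and -0.67 for Fech. With Xist as a covariate they were -1.41, -0.95 and -1.0 for the same genes.

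**Figure D5:**
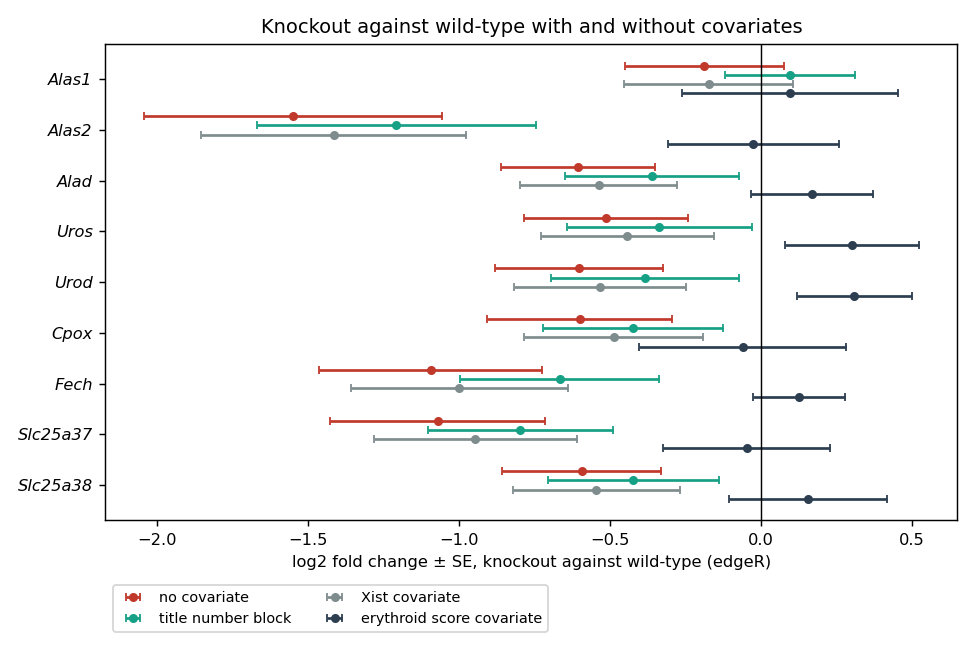
Log2 fold change ± SE of knockout against wild-type embryos for each of the 9 genes from edgeR with no covariate, with the title number as a block, with Xist as a covariate and with the erythroid score as a covariate. Estimates with the erythroid score lie between -0.06 and 0.31, while those with Xist lie close to the estimates with no covariate.

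Marker lists of other cell types were read in the same fit, and none of their genes passed the adjusted threshold. Over all genes, 48.7% had negative estimates in knockout against wild-type embryos. At an unadjusted p under 0.05, 4.08% of all genes were lower and 4.25% higher. Macrophage markers were lower in knockout than in wild-type embryos for 11 of 12 genes (3 at an unadjusted p under 0.05), and 5 of 8 endothelial markers were positive with a median log2 fold change of 0.07. Megakaryocyte markers had a median of -0.49, with 0 of 6 at an unadjusted p under 0.05. Yolk sac endoderm markers were positive for 10 of 10 genes, all 10 at an unadjusted p under 0.05. The groups overlapped for every one of them, while 333 of 20771 genes separated in this direction. The summed level of the 10 was 42.8 to 1105 CPM in knockout, 39.1 to 94.3 CPM in heterozygous and 26.3 to 43.0 CPM in wild-type embryos. Knockout 3 held the highest value, and knockout 1, 2 and 4 were at 42.8, 57.9 and 106 CPM. Hepatoblast markers were positive for 9 of 10 genes, 4 at an unadjusted p under 0.05, and Alb was the exception at -1.72 ± 1.12. Their summed level was 12.6 to 4057 CPM in knockout, 39.7 to 712 CPM in heterozygous and 31.9 to 188 CPM in wild-type embryos. The 4057 CPM was in knockout 3 and was mostly Afp, at 3319 CPM. Fgb is in both the hepatoblast and the yolk sac list, so these lists are not independent. No marker in these lists was at 0 in every embryo of a genotype. Without knockout 3, whose yolk sac and hepatoblast sums were the highest, the 9 heme genes kept negative estimates with a median of -0.65, and Alas2 was at -1.72; the part of the other cell types in the result was not tested.

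The genes split by how they varied together. Over the 12 embryos the 21 pairs among Alas2, Alad, Uros, Urod, Fech, Slc25a37 and Slc25a38 had Pearson's r of 0.677 to 0.968 in log2 CPM, with a median of 0.903. The 7 pairs of these genes with Cpox ran from 0.401 to 0.810, and the 8 pairs with Alas1 from -0.386 to 0.322. Among 13997 genes averaging at least 1 CPM, those most like Fech were Trim10, an erythroid ubiquitin ligase (r = 0.990), Ube2l6 (r = 0.987) and Nfe2, an erythroid and megakaryocyte transcription factor (r = 0.986); Trim10 and Nfe2 are in the erythroid list. Alas2 was most like the potassium channel gene Kcnn4 (r = 0.981) and the red cell membrane gene Epb42 (r = 0.980).

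For Urod, Alad and Uros, other members and the partner Tmem14c were among the most similar genes. Urod was most like Tmem14c, which moves a porphyrin precursor in the mitochondrion of erythroid cells (r = 0.989), then Alad (r = 0.968). Alad was most like Urod (r = 0.968), Tmem14c (r = 0.957) and Apoo-ps (r = 0.957), and Uros like Urod (r = 0.951), Tmem14c (r = 0.946) and Zc3hav1 (r = 0.945). Slc25a38 was most like Ciao2a (r = 0.982), Prdx2, the abundant peroxiredoxin of red cells (r = 0.982), and Yif1a (r = 0.975), and Slc25a37 like Adra2b (r = 0.971), Slc30a10 (r = 0.965) and Epb42 (r = 0.964). Cpox had other neighbours, Slc25a21 (r = 0.975), Atp8a1 (r = 0.929) and Slc39a8 (r = 0.910), and Alas1 was most like Tigd5 (r = 0.978), Ccnq (r = 0.972) and Hexim1 (r = 0.963). Each is an r over 12 embryos in the same libraries, given with no test.

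The rest of the pathway was followed in 16 partners: further enzymes, porphyrin and iron-sulfur cluster factors, and regulators of mitochondrial import. In knockout against wild-type embryos 13 of 16 had negative estimates (48.7% of all genes did). At an unadjusted p under 0.05, 3 were lower (4.08% of all genes) and 0 higher (4.25% of all genes). None passed the adjusted threshold, and the median log2 fold change was -0.28. Those at an unadjusted p under 0.05 included Fam210b, a mitochondrial protein needed for iron import in erythroid cells, at -0.93 ± 0.35. They also included Abcb10, a mitochondrial transporter that binds mitoferrin 1, at -0.63 ± 0.26. The knockout and wild-type values of Abcb10 did not overlap, a separation seen in 1.82% of all genes in this direction. Atp5if1, the most abundant partner, was at -0.51 ± 0.30, and Ppox, the enzyme between Cpox and Fech, at -0.42 ± 0.20. Clpx, the mitochondrial unfoldase that activates ALA synthase, was at -0.02 ± 0.15. Slc6a9, a glycine transporter of the cell surface, had a positive estimate of 0.68 ± 0.36 (edgeR adjusted p = 0.623).

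Among 16 genes of heme breakdown, transport and sensing, 10 had negative estimates in knockout against wild-type embryos (48.7% of all genes did). At an unadjusted p under 0.05, 3 were lower (4.08% of all genes) and 0 higher (4.25% of all genes), and the median log2 fold change was -0.16. Blvrb, a biliverdin reductase abundant in red cells, was at -1.56 ± 0.51 (edgeR adjusted p = 0.538), Slc48a1, which carries heme across lysosomal and related membranes, at -0.80 ± 0.24 (adjusted p = 0.538) and Blvra at -0.75 ± 0.31 (adjusted p = 0.587). Slc48a1 averaged 17.8 ± 3.73 CPM in knockout, 30.1 ± 5.66 CPM in heterozygous and 31.1 ± 10.9 CPM in wild-type embryos. Eif2ak1, the heme-regulated kinase that slows globin translation when heme is short, was at -0.36 ± 0.19. It was the 1 gene of the list whose groups did not overlap (1.82% of all genes in this direction). Bach1, the heme-sensing repressor, was at 0.15 ± 0.21, and Pgrmc1, a heme-binding membrane protein, at -0.22 ± 0.19. Hmox1, the inducible heme oxygenase, chosen after its values were seen, had a median of 27.7 CPM in knockout, 30.1 CPM in heterozygous and 25.3 CPM in wild-type embryos, with 1 high embryo in each mutant genotype, knockout 3 at 114 CPM and heterozygous 2 at 121 CPM, and an estimate of 0.76 ± 0.58 for knockout against wild-type.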

How the data were processed

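RNA from 12 whole embryos, 4 of each genotype, was sequenced as poly(A) libraries with a strand-marking kit. The deposited table holds estimated counts for each gene without normalization, made with featureCounts 2.0.6 on the RefSeq annotation of GRCm39, per the file headers. Reads at several places or over several genes gave fractions, mates were counted singly and strand was not used, so antisense neighbours share reads. The submitters' processing notes also list DRAGEN and Subread, with no role given. No row was spike-in RNA (0 rows).

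Counts were rounded to whole numbers. In R 4.3.3, genes were filtered with filterByExpr, leaving 20771 with all 9 members, scaled by TMM and tested with edgeR 4.0.16 (robust quasi-likelihood, 1 mean per genotype, all 12 embryos, two-sided, Benjamini-Hochberg over all genes, threshold 0.05). The standard error is the fold change over the root of its F statistic. Log2 CPM for scores and correlations used a prior count of 2. The alternatives were DESeq2 1.42.0, its size factors in edgeR, no count filter, only the compared genotypes, the title number as a block, Xist or erythroid score covariates, each embryo left out, and, added after seeing the data, leaving out wild-type 1 and heterozygous 4, the embryos with the most globin RNA. On simulated counts the estimated fold changes of the main test followed the planted ones, and few unchanged genes were called. That check set no requirement on how many planted changes passed the adjusted threshold, so it gives no power for the 9 genes. Every pair of libraries differed by more than sampling noise. Each embryo is 1 animal; embryo numbers follow the order of deposition and pair no samples.

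The members and all gene lists were chosen with earlier results of these data known. Named genes were taken from the 9 members, Mfsd12 and the 3 genes most like each member. Gene models named Gm or ending Rik were left out of the most similar genes. Each list added its 2 most abundant and its 2 with the smallest p in knockout against wild-type. Macrophage, megakaryocyte, liver, yolk sac and endothelial lists are given by counts, with only Alb, Afp and Fgb named. Other named genes, mainly Slc25a28, Apex2, Ppox, Abcb10, Clpx, Slc6a9, Blvra, Eif2ak1, Hmox1, Alb and Ddx3y, were chosen after their values were seen. A few genes that this rule names are not reported here.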

Additional observations from a re-analysis of the deposited data

Results flagged for a closer look

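Wild-type 1 stood apart from the other 3 wild-type embryos for 3 of the 9 genes by Dixon's test. Alas2 was 330.75 CPM there, with 107.2 to 120.1 CPM in the rest of its group. Uros was 50.3 CPM, with 22.9 to 25.7 CPM in the others, and Fech was 194 CPM, with 69.8 to 89.7 CPM in the others. In all, 33 groups of 4 embryos were examined and 3 were flagged; chance flags about 1 in 20. Globin RNA was 8.64% of counted reads in that embryo and its erythroid score was 1.73, the highest of the 12 in both. The estimates without it are given beside each gene in the report.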

How the results depend on the processing

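None of the 9 genes passed the adjusted threshold for any pair of genotypes under any alternative run. Of 144 alternative estimates, 137 kept their sign for knockout against wild-type, 137 for knockout against heterozygous and 118 for heterozygous against wild-type. DESeq2 called 129, 75 and 4 genes over the whole table in these comparisons, against 0 in edgeR; the title number as a block gave 2 genes for knockout against wild-type, and leaving out 1 embryo gave 0 to 1 for knockout against wild-type (1 without knockout 1 or knockout 3), and 0 to 1 for knockout against heterozygous embryos (1 without knockout 3). Embryo numbers follow the order of deposition and pair no samples, so embryos were matched by title number alone, as a block and within numbers 4 and 18.

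A block for the title number turned Alas1 to 0.096 for knockout against wild-type, and turned heterozygous against wild-type to 0.52 for Alas2, 0.12 for Uros, 0.14 for Urod, 0.18 for Fech and 0.25 for Slc25a37. The Xist covariate turned heterozygous against wild-type to 0.79 for Alas2, 0.062 for Alad, 0.086 for Uros, 0.14 for Urod, 0.19 for Fech and 0.41 for Slc25a37. Every heterozygous embryo held more Xist RNA than every wild-type embryo, so that covariate is largely tied to genotype there. The erythroid score covariate turned knockout against wild-type to 0.096 for Alas1, 0.17 for Alad, 0.30 for Uros, 0.31 for Urod, 0.13 for Fech and 0.15 for Slc25a38. It turned knockout against heterozygous to 0.23 for Alad, 0.34 for Uros, 0.28 for Urod, 0.22 for Fech, 0.091 for Slc25a37 and 0.25 for Slc25a38, and heterozygous against wild-type to 0.036 for Alas2 and 0.026 for Urod. Without wild-type 1 and heterozygous 4, heterozygous against wild-type turned to 0.046 for Urod, -0.087 for Cpox and 0.11 for Slc25a38. The cause of these turns was not tested.

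Leaving out 1 embryo at a time, knockout against heterozygous ran from -0.0050, without heterozygous 2, to 0.45 for Alas1. Heterozygous against wild-type ran from -0.63 to -0.18 for Alas1, -0.68 to 0.40 for Alas2, -0.37 to 0.13 for Alad, -0.41 to 0.18 for Uros, -0.35 to 0.25 for Urod, -0.16 to 0.38 for Cpox, -0.60 to 0.14 for Fech, -0.64 to 0.097 for Slc25a37 and -0.44 to 0.12 for Slc25a38. The Alas2 to Alas1 log2 difference ran from -1.54 to -1.01 for knockout against wild-type, each time with an exact permutation p of 0.0571, the smallest that 4 against 3 can give, and from -0.073 to 0.72 for heterozygous against wild-type. Pearson's r of Alas1 with the erythroid score was -0.091 without wild-type 1 and knockout 1. Alas1 and Alas2 averaged 2021 and 7572 counted reads per embryo, so the spread between 4 embryos limits the precision more than counting error.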
